A study of Mus musculus with 8 samples.

Results

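The genes described here are the growth factor genes Bmp2, Bmp4, Bmp7, Tgfb1, Tgfb2 and Tgfb3 and the receptor gene Acvrl1. Their members are all probe sets that the array annotation gives to 1 of these 7 genes, 13 of the 12488 probe sets on the array. Expression was measured in the embryonic gonad of mice on the Affymetrix MG_U74Av2 array, a 1-colour array that reads each transcript with a set of short probes. The 8 groups held 1 array each: Wnt4 knock-out (KO) testis at E14.5, wild type (WT) testis at E14.5, KO ovary at E14.5, WT ovary at E14.5, KO testis at E12.5, WT testis at E12.5, KO ovary at E12.5 and WT ovary at E12.5, where E counts days of embryonic development. The labels describe no allele for the knock-out and no strain, and they do not say how many gonads went onto an array. No group held a replicate, so precision is limited by how few arrays there are. Embryos were picked by their form to match stages, per the design notes. KO was set against WT to ask which transcripts of the early gonad change without Wnt4, testis against ovary to ask how the sexes differ, and E14.5 against E12.5 to ask what changes as the gonad develops.

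BMPs and TGF-betas are secreted dimers that bind pairs of type I and type II receptor kinases at the cell surface, and the receptors pass the signal to Smad proteins, which enter the nucleus and act on target genes. TGF-betas are secreted in a latent form that is stored in the matrix until it is released, while follistatin, noggin, chordin and gremlin bind ligands of the family and block them. Wnt4 is a secreted signal made by the supporting cells of the fetal ovary in mice, where it is needed for normal ovary formation and for holding back the testis-type artery.

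Levels are log2 signals, shifted so that all arrays had 1 median, and differences are log2 differences. A floor of 6.99, the 40th percentile of all centred values, marks the level under which values were not separated, and a probe set was tested if it lay above the floor on at least 2 arrays. Wnt4 itself was at 8.32 to 9.19 in KO and 9.26 to 10.19 in WT gonads and lower in KO in all 4 pairs. The labels do not say whether its probe set lies in the deleted part. Eif2s3y, a Y-linked gene, was at 7.63 in the WT ovary at E14.5, against 4.86 to 6.04 in the other ovaries. In the KO testis at E14.5 it was at 6.91, under the floor, against 7.54 to 8.12 in the other testes. Xist, an X-linked gene, was at 4.79 in that KO testis, against 4.07 to 4.44 in the other testes. In the WT ovary at E14.5 it was at 7.10, against 7.69 to 8.13 in the other ovaries. The summed linear signal of a Sertoli marker list was 3864 in that WT ovary and 2500 to 2634 in the other ovaries. The E14.5 testis arrays stood apart from the other 6: they correlated with them at a Pearson r of 0.883 to 0.907 over probe sets, against 0.979 to 0.997 among those 6. Within each KO and WT pair of 1 sex and stage, between 10 and 21 probe sets held exactly the same deposited value, against 0 in each of the other 24 pairings of arrays. The spread in the limma fits comes from KO minus WT differences within these pairs. Stage and sex comparisons run between pairs, so their adjusted p-values were not tested against the spread between pairs, and large shares of all probe sets passed in them. With the pair as a random block, an alternative chosen after seeing the data, 0 of 8441 probe sets passed for sex or for stage, and 734 and 971 had an unadjusted p under 0.05.

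Of the 13 probe sets, 8 passed the filter, and they stood for 6 of the 7 genes. These 8 lay above the floor on all 8 arrays, and the other 5 lay below it on all 8. Bmp2, a ligand that the mouse fetal ovary is known to express, was the gene without a tested probe set. Its brightest one, 102559_at, was at 5.44 in KO and 4.98 in WT testes at E14.5, 5.68 in KO and 5.89 in WT ovaries at E14.5, 5.73 in KO and 5.92 in WT testes at E12.5, and 5.67 in KO and 6.13 in WT ovaries at E12.5. The other Bmp2 probe sets, 161901_r_at and 161118_r_at, lay between 3.57 and 4.21 and between 2.53 and 3.36. Bmp2 therefore has no measured difference here, and a low signal of these probe sets does not show that the transcript was absent. Each of the 6 other genes is given below by the probe set with its highest mean, and the plot of levels on the 8 arrays shows all 13.

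**Figure D1:**
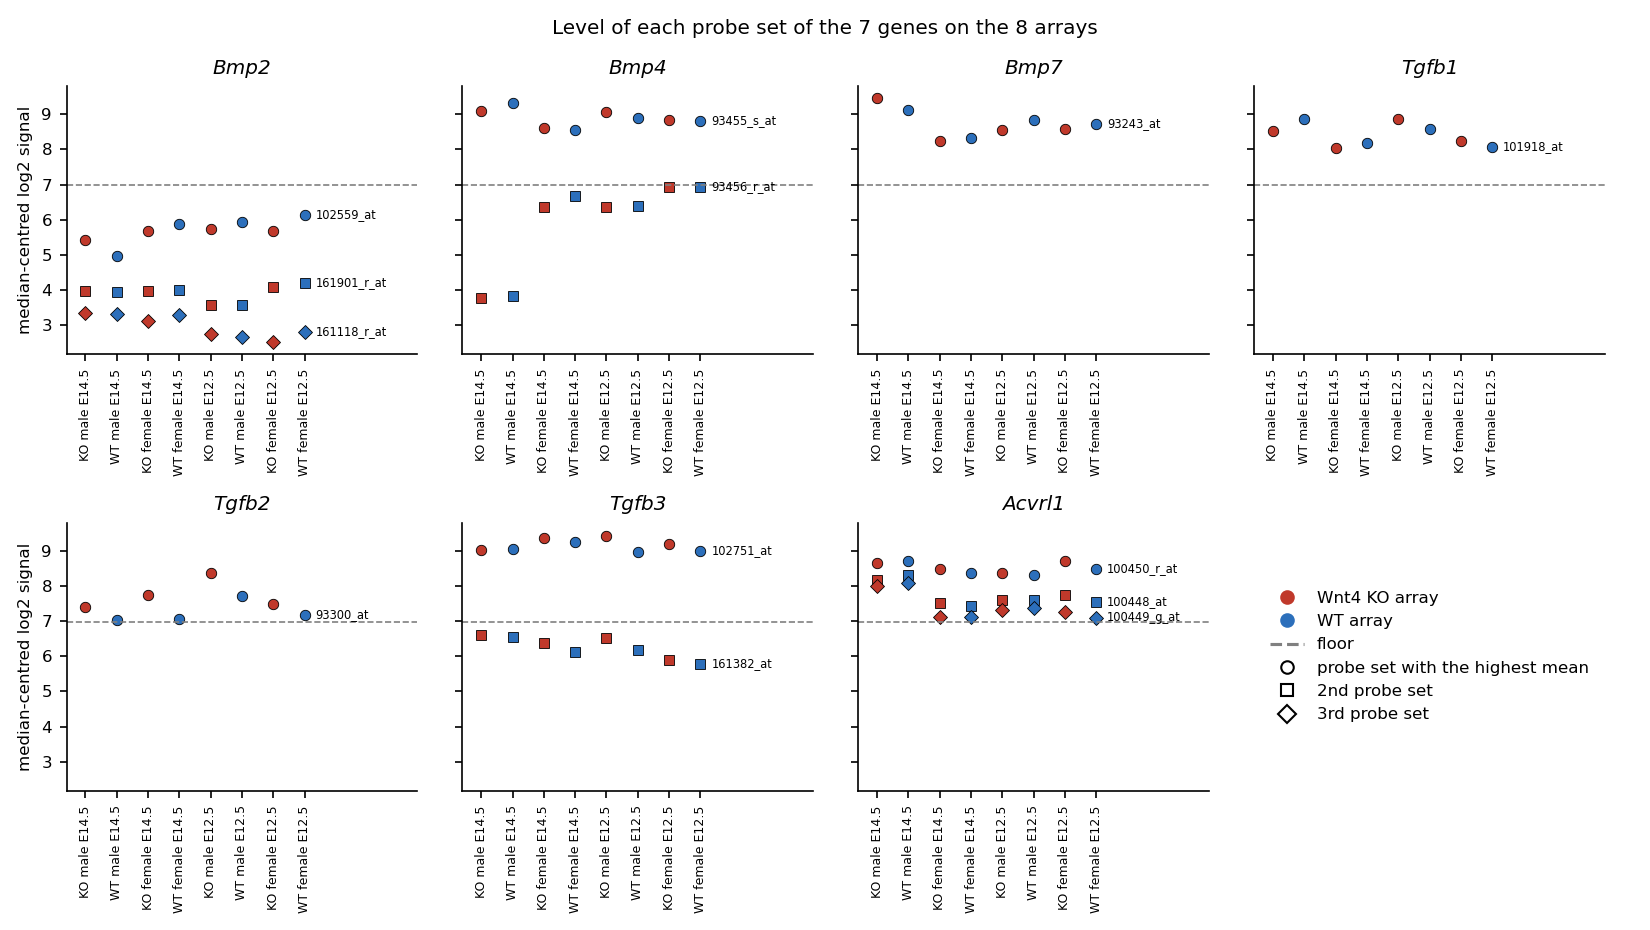
Median-centred log2 signal of each of the 13 probe sets (y axis) on the 8 arrays (x axis, 1 array per group), with KO arrays in red, WT arrays in blue and the floor of 6.99 as a dashed line. All 3 Bmp2 probe sets lie under the floor on every array, while 1 probe set each of Bmp4, Bmp7, Tgfb1, Tgfb2 and Tgfb3 and all 3 of Acvrl1 lie above it.

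The promoters of 3 of the 7 genes were in the RefSeq table for build GRCm38.p6, each from 250 bases before to 50 after the annotated start. They are shown because no other member had a promoter there. Tgfb2 was higher in KO in all 4 pairs, and Tgfb1 and Bmp4 were higher in testes in all 4. A link between the sequences and these differences was not tested. Tgfb2 lies on the minus strand at chr1:186705940-186706239, Tgfb1 on the plus strand at chr7:25686752-25687051 and Bmp4 on the minus strand at chr14:46390620-46390919. Capitals mark matches, on either strand, to the core promoter element TATAAA, to the E-box sequence CACGTG, to the Sp1-type box GGGCGG and to the Smad-binding sequence CAGAC, and no marked matches overlap.
Tgfb2: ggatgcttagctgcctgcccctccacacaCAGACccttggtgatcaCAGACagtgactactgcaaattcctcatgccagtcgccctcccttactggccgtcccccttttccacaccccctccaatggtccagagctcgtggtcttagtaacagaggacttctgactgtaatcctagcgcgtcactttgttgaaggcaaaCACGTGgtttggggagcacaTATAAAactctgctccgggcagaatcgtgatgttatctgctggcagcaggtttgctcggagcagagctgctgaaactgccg
Tgfb1: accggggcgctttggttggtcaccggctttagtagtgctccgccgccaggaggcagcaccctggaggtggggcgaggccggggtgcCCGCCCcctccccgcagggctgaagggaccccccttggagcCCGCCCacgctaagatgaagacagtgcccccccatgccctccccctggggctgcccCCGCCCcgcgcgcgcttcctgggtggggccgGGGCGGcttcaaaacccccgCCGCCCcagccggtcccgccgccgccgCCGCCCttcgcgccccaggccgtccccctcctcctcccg
Bmp4: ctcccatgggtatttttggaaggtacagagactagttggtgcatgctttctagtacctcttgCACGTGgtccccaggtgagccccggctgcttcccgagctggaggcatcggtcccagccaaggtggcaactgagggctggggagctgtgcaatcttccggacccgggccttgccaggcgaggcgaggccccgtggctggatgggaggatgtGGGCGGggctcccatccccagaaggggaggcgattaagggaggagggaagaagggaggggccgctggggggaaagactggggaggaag
The Tgfb2 window held TATAAA 31 bases before the start, CACGTG 51 bases before it and CAGAC 2 times, with 54.3% G and C. The Tgfb1 window held GGGCGG 6 times and none of the other motifs, with 77% G and C. The Bmp4 window held CACGTG and GGGCGG 1 time each, with 64% G and C. Of 32851 promoters of the same length, 13.6% held TATAAA, 7.15% CACGTG, 35.7% GGGCGG and 49.6% CAGAC, and their median G and C content was 52.7%. CTTTGA, a core of the site bound by the TCF and LEF factors of Wnt signalling, was in 16% of them and in none of these 3 windows, which says only that these letters are not there.

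Tgfb2 was the member with the most uniform difference between genotypes: it was higher in KO than in WT gonads in both sexes and at both stages. Tgfb2 encodes a TGF-beta ligand that is secreted in latent form. In testes at E14.5 its probe set 93300_at was at 7.39 in KO and 7.02 in WT. In ovaries at E14.5 it was at 7.73 in KO and 7.06 in WT. In testes at E12.5 it was at 8.37 in KO and 7.72 in WT, and in ovaries at E12.5 at 7.49 in KO and 7.16 in WT. The 4 KO minus WT differences were thus 0.37, 0.67, 0.65 and 0.33, so that each KO array lay above the WT array of its sex and stage. Across sexes and stages the genotypes overlapped, since the WT testis at E12.5 (7.72) exceeded the KO testis at E14.5 and the KO ovary at E12.5. Tgfb2, whose promoter is printed above, was 1 of 6 tested members above 0 in all 4 pairs, a pattern held by 3.14% of the 8441 probe sets with complete values. No member was below 0 in all 4, as 3.77% of them were. These shares, and those of the sign patterns below, use floored values. A pair with both arrays at the floor has a difference of 0 and fits no sign pattern. The shares are therefore lower than among probe sets without such pairs, like the tested members. Only Postn and Hpgd had a smallest pair difference above that of Tgfb2, 0.33. All 3 genes together were 0.0355% of the 8441 probe sets. The rank follows from the same 4 differences and adds no test.

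In the limma fit over both sexes Tgfb2 was 0.51 ± 0.08 higher in KO (SE, 1.42-fold), with an adjusted p of 0.618 over 8452 probe sets and an unadjusted p of 0.00148. No member passed in this comparison, and 0 of 8452 probe sets did (0%), with 487 at an unadjusted p under 0.05. By fitted difference Tgfb2 ranked 8 from the top, and by p it ranked 19. Over the other settings tried the adjusted p lay between 0.268 and 1, and the difference between 0.42 and 0.59. With the pair as a random block it was 0.51 ± 0.07 with an adjusted p of 0.112. Without the WT ovary and the KO testis at E14.5, neither E14.5 pair was complete, so only the E12.5 pairs set the difference. It was then 0.49, which is the E12.5 value and says nothing about E14.5. Within stages the KO effect over both sexes was 0.52 ± 0.10 at E14.5 and 0.49 ± 0.10 at E12.5, with limma adjusted p of 0.403 and 0.378. Without a floor these became 0.0182 and 0.0324, so that the call at each stage depended on the floor. The stages differed by 0.03 ± 0.15 in the KO effect (limma adjusted p = 1).

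Tgfb3, the third TGF-beta ligand, was higher in KO in 3 of 4 pairs. Its probe set 102751_at was at 9.02 in KO and 9.05 in WT testes at E14.5, 9.37 in KO and 9.23 in WT ovaries at E14.5, 9.41 in KO and 8.95 in WT testes at E12.5, and 9.19 in KO and 9.001 in WT ovaries at E12.5. The KO testis at E12.5 had the highest level of the 8 arrays, and the WT testis of the same stage the lowest. At E12.5 the fitted KO difference was 0.33 ± 0.11 (limma adjusted p = 1), and over both stages it was 0.19 ± 0.09 (limma adjusted p = 0.894). Both values depended on single arrays. Without either E12.5 testis array they were 0.19 at E12.5 and 0.06 over both stages, without either E12.5 ovary array 0.46 and 0.17, and without either E14.5 testis array 0.33 and 0.31. In that comparison at E12.5, 7 of 8452 probe sets passed (0.0828%), higher in 0.0592% and lower in 0.0237%, and 0 of the 6 members were among them. The second Tgfb3 probe set, 161382_at, stayed between 5.77 and 6.60, under the floor.

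Tgfb1, whose ligand shares receptors with those of Tgfb2 and Tgfb3, had KO differences of opposite sign at the stages. At E14.5 its probe set 101918_at was at 8.52 in KO and 8.87 in WT testes and at 8.03 in KO and 8.18 in WT ovaries, lower in KO in both sexes. At E12.5 it was at 8.86 in KO and 8.57 in WT testes and at 8.23 in KO and 8.06 in WT ovaries, higher in KO in both sexes. The fitted KO differences were -0.25 ± 0.10 at E14.5 and 0.23 ± 0.10 at E12.5. Their difference was -0.48 ± 0.14, with an unadjusted p of 0.0141 and a limma adjusted p of 1, and 0 of 8452 probe sets passed (0%). The same sign pattern was held by 3.9% of the 8441 probe sets. Averaged over the stages, the KO difference of Tgfb1 was -0.01 ± 0.12. The summed linear signal of a Leydig cell marker list, whose 6 genes all had a probe set, differed in the same directions in all 4 pairs. It was 7330 in KO and 10287 in WT testes and 2501 in KO and 4515 in WT ovaries at E14.5, and 3328 in KO and 2977 in WT testes and 2559 in KO and 2167 in WT ovaries at E12.5. The KO effect at E14.5 minus that at E12.5 was below 0 for 6 of 6 tested Leydig genes and 8 of 8 tested Sertoli genes, with medians of -1.30 and -0.39 against -0.01 for all probe sets, and none passed in this difference. At E12.5 alone the KO difference over both sexes was above 0 for 5 Leydig genes and below 0 for 1. Of these, 1 passed as higher, with 7 of 8452 probe sets passing. For the Sertoli genes it was above 0 for 4 and below 0 for 4, with a median of 0.01, unlike the pattern of Tgfb1. The part of these cells in the Tgfb1 values was not tested. Each E14.5 pair holds an array whose Eif2s3y signal lay outside the others of its sex, the WT ovary at 7.63 and the KO testis at 6.91. The value of the KO testis lies under the floor, and its Xist signal of 4.79 was far below the 7.10 to 8.13 of the ovaries. Tgfb1 was higher in every testis than in every ovary. The part of these arrays in the E14.5 differences of Tgfb1 and of the marker lists was not tested.

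**Figure D2:**
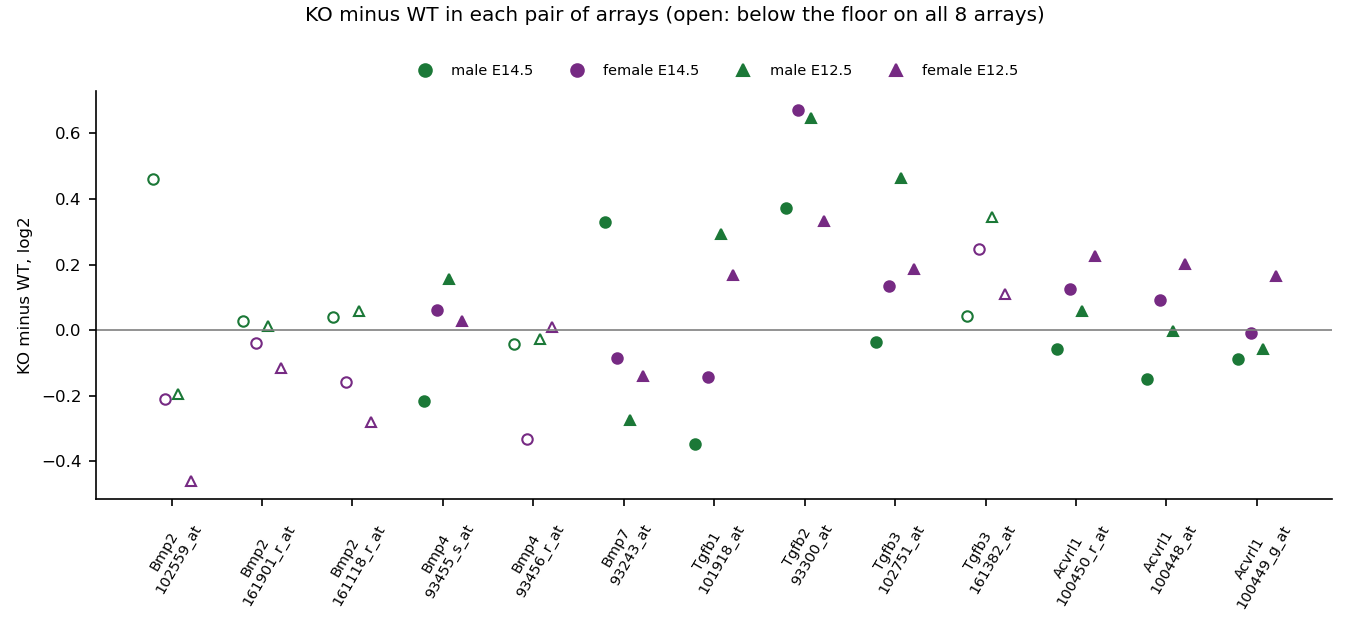
KO minus WT log2 difference (y axis) of each of the 13 probe sets (x axis) in the 4 pairs of arrays, with circles for E14.5, triangles for E12.5, green for testes and purple for ovaries. Open symbols mark probe sets under the floor on all 8 arrays. Tgfb2 (93300_at) lies between 0.33 and 0.67 in all 4 pairs, and Tgfb1 lies below 0 in both E14.5 pairs and above 0 in both E12.5 pairs.

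The BMP ligands and the receptor gene showed smaller or mixed KO differences. Bmp4 encodes a ligand known for its part in the formation of mouse germ cells. Its probe set 93455_s_at was at 9.09 in KO and 9.30 in WT testes at E14.5, 8.60 in KO and 8.54 in WT ovaries at E14.5, 9.06 in KO and 8.90 in WT testes at E12.5, and 8.83 in KO and 8.80 in WT ovaries at E12.5. The fitted KO difference was 0.01 ± 0.07. Bmp7, a ligand known from the embryonic kidney and its ducts, was at 9.45 in KO and 9.12 in WT testes at E14.5, 8.23 in KO and 8.32 in WT ovaries at E14.5, 8.55 in KO and 8.82 in WT testes at E12.5, and 8.58 in KO and 8.72 in WT ovaries at E12.5. It was higher in KO only in the E14.5 testes, by 0.33, and lower in the other 3 pairs, by 0.09 to 0.27. The summed linear signal of a mesonephros and duct marker list, 10 of whose 11 genes had a probe set, differed in the same directions, though only slightly in the E12.5 testes. It was 4020 in KO and 3262 in WT testes at E14.5, 3197 in KO and 3380 in WT ovaries at E14.5, 3193 in KO and 3216 in WT testes at E12.5, and 3539 in KO and 4190 in WT ovaries at E12.5. Epcam of this list lay under the floor on all 8 arrays, and Gata3 and Cldn7 did in both E14.5 testes. Gata3 also lay under it in the WT ovary at E14.5 and Pax2 in the WT ovary at E12.5. The list was split: of its 9 tested genes, the fitted KO difference was above 0 for 5 and below 0 for 4 in males. In females it was above 0 for 3 and below 0 for 6, and none passed. The part of these cells in the Bmp7 values was not tested, and in whole gonads fewer cells of a type and less RNA per cell cannot be told apart.

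Acvrl1 encodes a type I receptor known chiefly from endothelial cells. Its probe set 100450_r_at was at 8.63 in KO and 8.69 in WT testes at E14.5, 8.49 in KO and 8.36 in WT ovaries at E14.5, 8.37 in KO and 8.31 in WT testes at E12.5, and 8.71 in KO and 8.49 in WT ovaries at E12.5. KO ovaries lay above WT ovaries at both stages, by 0.13 and 0.22, while the testis differences were -0.06 and 0.06. The probe set 100448_at was higher in KO ovaries (0.09 and 0.20) and lower in KO testes (-0.15 and -0.003), a sign pattern held by 6.28% of the 8441 probe sets. The test of that difference between the sexes gave -0.22 ± 0.09 (limma adjusted p = 0.438), with 0 of 8452 probe sets passing (0%). At E12.5, 5 of the 6 tested members (Bmp4, Tgfb1, Tgfb2, Tgfb3 and Acvrl1) were higher in KO in both sexes, a pattern held by 17.2% of the probe sets. For Acvrl1 this held by 100450_r_at only, since in testes 100448_at differed by -0.003 and 100449_g_at by -0.06. For Bmp4 the difference in ovaries was as small as 0.03. The median of the 6 members' fitted KO differences at E12.5 was 0.19, against 0 for all probe sets, and at E14.5 0.04 against -0.01. The 17.2% and the medians of all probe sets include pairs at the floor, with a difference of 0. No sign of the 6 members in the 4 KO pairs changed without centring or with quantile normalization. The plot of all probe sets by KO difference and p places the 8 tested probe sets among the rest.

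**Figure D3:**
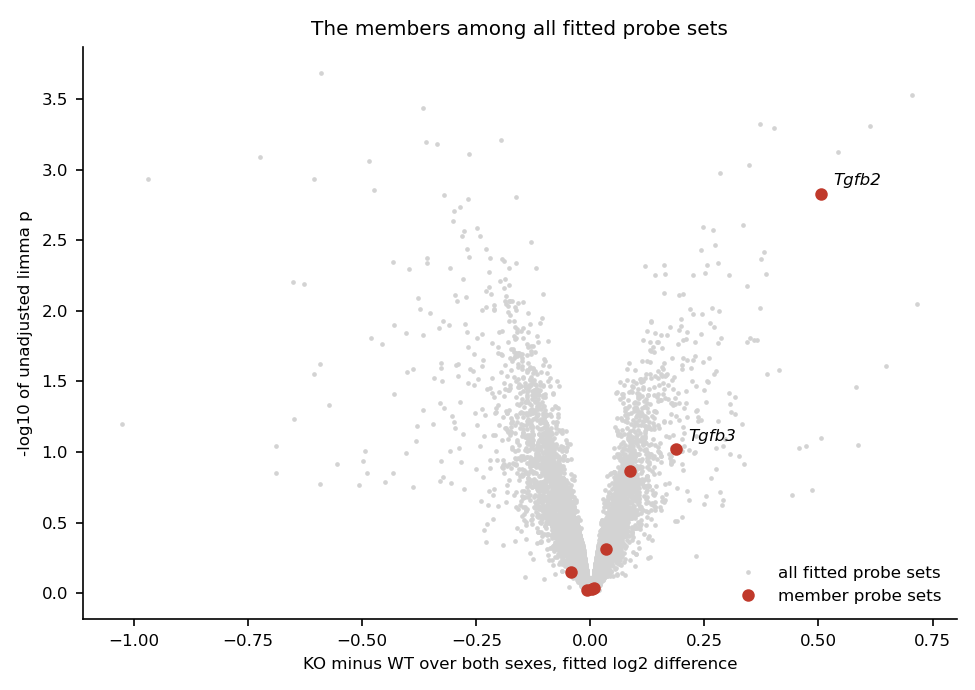
Fitted KO minus WT log2 difference over both sexes (x axis) against -log10 of the unadjusted limma p (y axis) for the 8452 tested probe sets (grey) and the 8 probe sets of Bmp4, Bmp7, Tgfb1, Tgfb2, Tgfb3 and Acvrl1 (red). Tgfb2 lies at 0.51 and an unadjusted p of 0.00148 with Tgfb3 next at 0.19, and none passes after adjustment.

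Between the sexes, Bmp4 and Tgfb1 were higher in testes than in ovaries in all 4 pairs, a pattern held by 15.4% of the 8441 probe sets, and no member was lower in testes in all 4, as 18.4% were. The male minus female differences of Tgfb1 were 0.48 (KO) and 0.69 (WT) at E14.5 and 0.63 (KO) and 0.50 (WT) at E12.5. Every testis array lay above every ovary array for Tgfb1, the lowest testis at 8.52 and the highest ovary at 8.23. For Bmp4 the differences were 0.49 (KO) and 0.76 (WT) at E14.5 and 0.23 (KO) and 0.10 (WT) at E12.5. All testes lay above all ovaries for Bmp4 too, but the gap between the WT testis at E12.5 (8.90) and the KO ovary at E12.5 (8.83) was narrow. Bmp7 was higher in testes at E14.5, by 1.22 in KO and 0.80 in WT, and differed by -0.04 and 0.10 at E12.5, where the sign in KO turned without centring.

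In the limma fit at E14.5, 4 of the 6 members passed as higher in males, against 39.5% of all probe sets passing in that direction and 77.5% in either. Bmp7 was 1.01 ± 0.15 higher (2.01-fold, adjusted p = 0.00254), Bmp4 0.63 ± 0.10 (1.54-fold, adjusted p = 0.00355), Tgfb1 0.59 ± 0.17 (1.5-fold, adjusted p = 0.0289) and Acvrl1 0.23 ± 0.07 by 100450_r_at (1.18-fold, adjusted p = 0.0284). The other Acvrl1 probe sets gave larger differences, 0.76 ± 0.07 by 100448_at (1.69-fold, limma adjusted p = 0.000399) and 0.93 ± 0.06 by 100449_g_at (1.91-fold, limma adjusted p = 0.000145). The difference by 100450_r_at turned to -0.15 without centring, where Bmp4 (0.24) and Tgfb1 (0.20) no longer passed and 1 member passed as higher and 1 as lower. At E12.5, 1 of 6 members passed as higher in males, Tgfb2, at 0.71 ± 0.11 (1.64-fold, limma adjusted p = 0.0269), against 7.79% of all probe sets in that direction, 8.51% in the other and 16.3% in either. Tgfb1 was 0.57 ± 0.17 at E12.5 with a limma adjusted p of 0.0872, which fell under the threshold without centring (0.0249) and without a floor (0.0494). Leaving out any 1 of the 8 arrays ended the calls of Tgfb2 at E12.5 (0.54 to 0.88) and of Tgfb1 (0.27 to 0.91) and Acvrl1 (0.18 to 0.29) at E14.5. It ended those of Bmp4 and Bmp7 at E14.5 without either ovary array of that stage, at 0.61 without WT and 0.64 without KO for Bmp4 and at 0.98 and 1.04 for Bmp7. With the pair as a random block, the male minus female difference over both stages was 0.58 ± 0.43 for Tgfb1 and 0.39 ± 0.32 for Bmp4, with limma adjusted p of 0.594 and 0.622. The testis arrays also differed from the ovary arrays in technical values, with a mean spike-in signal of 9.48 to 10.1 against 8.83 to 9.05 and a 3' minus 5' gap of actin of 0.96 to 1.37 against 0.48 to 0.77. Their part in the sex differences was not tested.

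Between the stages, 4 of the 6 members had differences that were not alike in the sexes. Tgfb2 was lower at E14.5 than at E12.5 in testes, by 0.98 in KO and 0.70 in WT, and changed by 0.24 (KO) and -0.10 (WT) in ovaries. In the limma fit the stage difference in males was -0.84 ± 0.11 (0.559-fold, adjusted p = 0.0015), and the gap between the sexes was -0.91 ± 0.15 (adjusted p = 0.00536). These directions of Tgfb2 in testes held without centring and with quantile normalization. Bmp4, Bmp7 and Acvrl1 were higher at E14.5 in both testis pairs and lower in both ovary pairs, a pattern held by 13.3% of the 8441 probe sets, but without centring Bmp4 and Acvrl1 were lower at E14.5 in both testis pairs and Bmp7 in the WT pair. The opposite pattern, lower in both testis pairs and higher in both ovary pairs, was held by 11.1% of them and by no member. Bmp7 differed by 0.91 (KO) and 0.30 (WT) in testes and by -0.35 (KO) and -0.40 (WT) in ovaries. Bmp4 differed by 0.03 (KO) and 0.40 (WT) in testes and by -0.23 (KO) and -0.26 (WT) in ovaries.

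In males, 3 of 6 members passed in the limma fit over the stages, against 77.8% of all probe sets: Tgfb2 as lower, Bmp7 at 0.60 ± 0.15 (adjusted p = 0.016) and Acvrl1 at 0.32 ± 0.07 (adjusted p = 0.01) as higher. Without centring the stage differences in males became -0.18 for Bmp7 and -0.46 for Acvrl1 by 100450_r_at, and the median of all probe sets was then -0.69. In females, 0 of 6 passed, against 23.1% of all probe sets, and the members' limma adjusted p lay between 0.137 and 0.94. Without centring, 0 members passed as higher and 3 as lower in females, and 0 as higher and 5 as lower in males, against 2 and 1 in males with centring. The stage effect in males minus that in females passed for Bmp7 at 0.98 ± 0.21 (adjusted p = 0.0121), Acvrl1 at 0.49 ± 0.10 (adjusted p = 0.00916) and Bmp4 at 0.46 ± 0.14 (adjusted p = 0.0386), and for Tgfb2 as given above, so that 3 members were higher and 1 lower, against 35.2% and 33.8% of all probe sets and 69% in either direction. Without centring 0 members passed as higher and 2 as lower, and the difference was -0.06 for Bmp4, -0.04 for Acvrl1 by 100450_r_at and 0.45 for Bmp7 (limma adjusted p = 0.0854). The E14.5 testis arrays that stand apart from the rest enter the comparisons in males and between the sexes, and a difference of these arrays and the state of the testis at E14.5 cannot be told apart. All 7 of these calls were lost in 4 to 6 of the 8 fits that left out 1 array each, with no change of direction: Tgfb2 in males when any 1 testis array was left out (-0.98 to -0.70), and Bmp7 in males without any 1 ovary array or either KO testis (0.30 to 0.91 over the 8 fits).

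The 3 Acvrl1 probe sets shared the stage difference in males, at 0.32 for 100450_r_at, 0.65 for 100448_at and 0.71 for 100449_g_at (limma adjusted p = 0.01, 0.000647 and 0.000289). An endothelial marker list, 14 of whose 17 genes had a probe set, had a summed linear signal of 5788 and 5436 in KO and WT testes at E14.5. That was below the 7369 and 6641 of KO and WT testes at E12.5, while Acvrl1 was higher at E14.5. The list was split: over the stages in males 6 of its 14 genes were above 0 and 8 below. Of these, 3 passed as higher and 7 as lower, against 38% and 39.9% of all probe sets. The part of endothelial cells in the Acvrl1 values was not tested. For Bmp4 the second probe set, 93456_r_at, was at 3.78 in KO and 3.83 in WT testes at E14.5, against 6.36 to 6.93 on the other 6 arrays. It lay under the floor on all 8 arrays, so it has no measured difference.

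**Figure D4:**
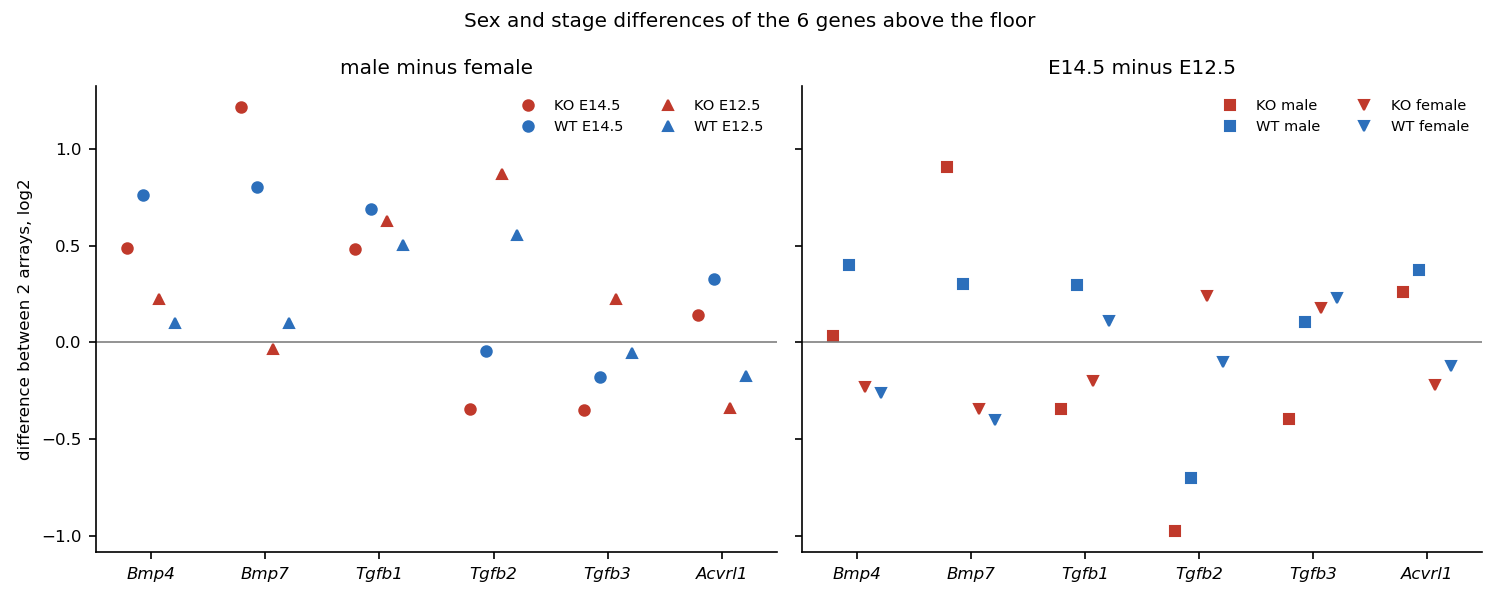
Log2 difference between 2 arrays (y axis) for the 6 genes above the floor (x axis): male minus female on the left, with circles for E14.5 and triangles for E12.5, and E14.5 minus E12.5 on the right, with squares for males and downward triangles for females, KO in red and WT in blue. Tgfb1 lies above 0 in all 4 sex pairs and Tgfb2 at -0.98 and -0.70 in the male stage pairs. Without centring the male stage differences of Bmp4 and Acvrl1 and the E14.5 sex differences of Acvrl1 turn negative. Acvrl1 is shown here by 100450_r_at alone.

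The genes around the ligands were taken from 6 lists by role, with 88 genes, of which 70 had a probe set and 57 passed the filter. Over both sexes, none of the 57 passed for KO against WT (0% of all probe sets). Of the 57, 24 were above and 33 below 0, with a median of -0.02 against -0.01 for all probe sets. The targets held Postn, a matrix protein gene known to respond to TGF-beta, at 0.70 ± 0.07 (limma adjusted p = 0.558), with KO minus WT differences of 0.62 in testes and 0.63 in ovaries at E14.5 and of 1.02 in testes and 0.55 in ovaries at E12.5. Hey1, a target of Notch and BMP signals, was at 0.17 ± 0.05 with limma adjusted p = 0.843, above 0 in all 4 pairs. Mmp14, a membrane protease that can release latent TGF-beta, was at 0.28 ± 0.08, and Bgn, a matrix proteoglycan that binds TGF-beta, at -0.16 ± 0.05, both with a limma adjusted p of 0.843. Postn, Hey1 and Mmp14 were above 0 and Bgn below 0 in all 4 pairs, 3 and 1 of 57 genes against 3.14% and 3.77% of all probe sets, and they are named because they had 1 sign in all pairs. The summed linear signal of a stroma and matrix list, which holds Postn, was 22367 in KO and 23700 in WT testes at E14.5, 24387 in KO and 20792 in WT ovaries at E14.5, 20776 in KO and 18124 in WT testes at E12.5, and 14549 in KO and 14667 in WT ovaries at E12.5. This sum was higher in KO in 2 of 4 pairs. The mean log2 level of the same list was higher in KO in 3 of 4 pairs, at 10.57 in KO and 10.58 in WT testes and 10.87 in KO and 10.64 in WT ovaries at E14.5, and at 10.4 in KO and 10.15 in WT testes and 10.05 in KO and 9.98 in WT ovaries at E12.5. Of its 10 genes, 9 had a fitted KO difference above 0, with a median of 0.08 against -0.01 for all probe sets, and none passed. The part of these cells in the Tgfb2 and Postn values was not tested.

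Over the stages in males, 16 of the 57 genes passed as higher and 23 as lower, against 38% and 39.9% of all probe sets, and without centring 5 passed as higher and 44 as lower. Among the ligands outside the 7, Inha at 1.55 ± 0.28 and Inhba at 1.13 ± 0.16, subunits of inhibins and activins, were higher at E14.5 and Inhbb, another subunit, was lower at -1.23 ± 0.17. Of the Smads, Smad4 (-1.96 ± 0.07), Smad2 (-1.10 ± 0.08) and Smad1 (-0.64 ± 0.06) were lower, and so were the type I receptor gene Bmpr1a (-0.92 ± 0.05) and the type II receptor gene Acvr2a (-0.93 ± 0.06). Bmpr1a (6.15 in KO and 5.83 in WT) and Acvr2a (6.13 and 6.03) lay under the floor in both E14.5 testes. Their falls are thus lower bounds, and their SEs rest in part on values raised to the floor. In KO testes, Inhbb lay under it at E14.5 (6.57) and Inhba at E12.5 (6.88), so their differences are lower bounds as well. Chrd, whose product chordin blocks BMPs, was higher at 1.13 ± 0.06, and Ltbp3, a latent TGF-beta binding protein gene, at 1.13 ± 0.06. Smad7, an inhibitory Smad gene, was lower at -1.40 ± 0.09, and Id2, a target of BMP signals, at -2.33 ± 0.21. All of these had limma adjusted p at or under 0.00535 and kept their sign without centring and with quantile normalization, but without centring the higher ones were smaller, at 0.77 for Inha, 0.40 for Inhba and 0.35 each for Chrd and Ltbp3. The ligand gene Gdf3 (0.77), the co-receptor gene Tgfbr3 (0.37) and the microfibril gene Fbn2 (0.50) turned to -0.012, -0.30 and -0.28 without centring. Tgfbr3 lay at 6.88 in the WT testis at E12.5, under the floor. In females, 8 passed as higher and 12 as lower, against 8.41% and 14.6% of all probe sets. Without centring 6 were higher and 27 lower, and with quantile normalization 10 and 9. They included Dcn, a proteoglycan that binds TGF-beta, at 1.17 ± 0.07 and Inhba at 0.94 ± 0.16 as higher, and the BMP targets Id3 at -0.69 ± 0.10 and Id1 at -0.57 ± 0.11 as lower, with limma adjusted p between 0.00808 and 0.0309. Between the sexes, 14 of the 57 passed as higher and 19 as lower in males at E14.5, against 39.5% and 38% of all probe sets, and 6 and 2 at E12.5, against 7.79% and 8.51%. Without centring these splits were 9 and 33 at E14.5 and 14 and 2 at E12.5.

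**Figure D5:**
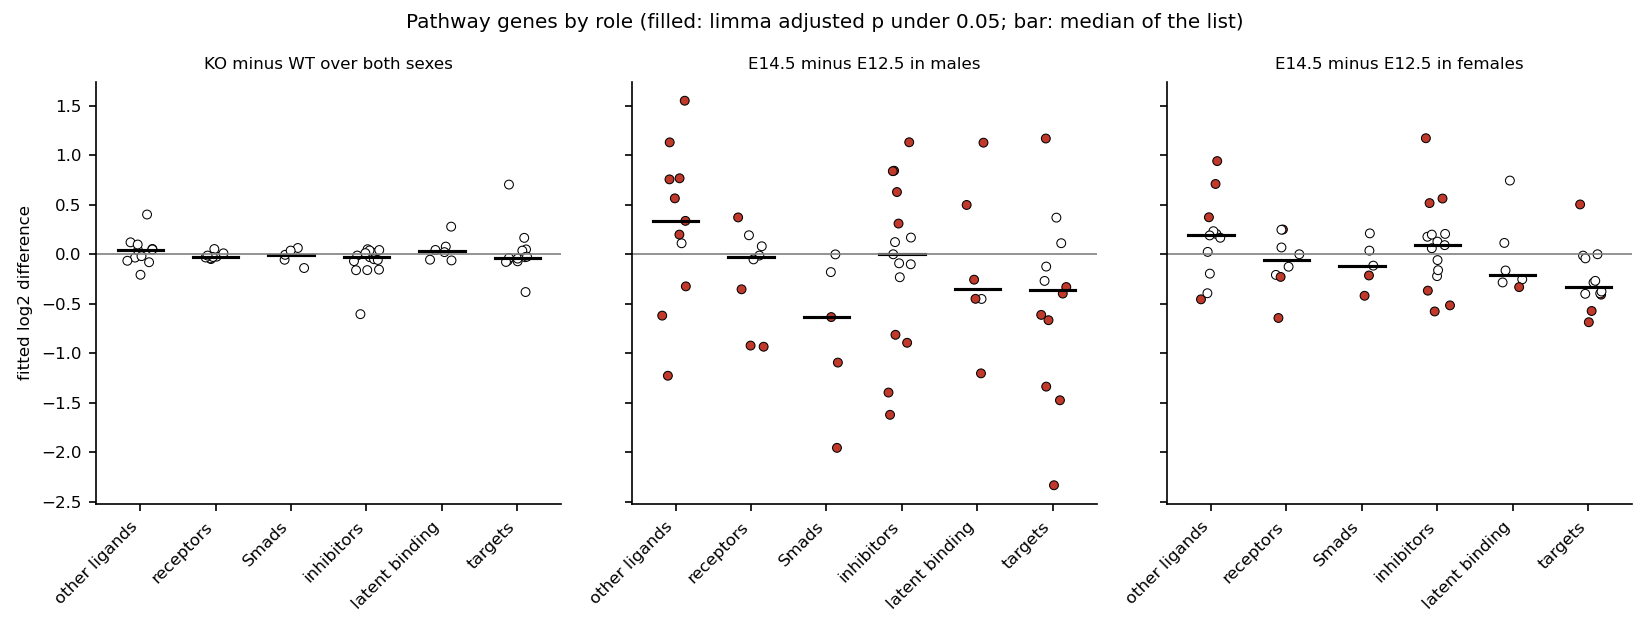
Fitted log2 difference (y axis) of the 57 tested pathway genes by role (x axis) for KO minus WT over both sexes, E14.5 minus E12.5 in males and E14.5 minus E12.5 in females; filled points have a limma adjusted p under 0.05 and bars are list medians. None of the 57 is filled for KO, against 39 in males and 20 in females over the stages. Without centring the medians of all probe sets over the stages are -0.69 in males and -0.27 in females, so the split into higher and lower changes there.

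The genes whose levels followed each member most closely were ranked by the smaller of 2 Pearson correlations, over all 8 arrays and over the 6 arrays other than the E14.5 testes, among 6517 probe sets. These points share arrays and array pairs, and the values are descriptions. Tgfb2 was followed by Pold1 (0.936 over 8 arrays and 0.98 over 6), Ptprd (0.909 and 0.963) and Serinc3 (0.889 and 0.89). Tgfb3 was followed by Slc8a1 (0.942 and 0.968), Cry1 and Sphk1, and Tgfb1 by Akr1b8 (0.968 and 0.974), Ambra1 and Bag6. Bmp4 was followed by Os9 (0.984 and 0.986), Znrf1 and Cln8, Bmp7 by Chrnd (0.981 and 0.988), Chchd5 and Tpp1, and Acvrl1 by Cyp21a1 (0.953 and 0.943), Prss30 and Nudcd2. No gene was among the nearest 3 of more than 1 member.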

How the data were processed

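Total RNA of the 8 gonad samples was hybridised to 1 array each. The deposited log2 values were made by the authors with MAS5, per the submitters' processing notes, while its version, scaling and background settings are not given in any source used here. The log2 unit was read from the deposited values. In the KO male E12.5 column, whose deposited values of unit other include dates, 14 cells holding date serial numbers from 41278 to 41284 were set to missing. Arrays were shifted to 1 median, values under the 40th percentile (6.99) were raised to it, and 66 control probe sets were left out. The fits used the 8452 probe sets that exceeded this floor on 2 or more arrays. Members were named through the platform annotation, which gave 1 gene to 10833 probe sets, several to 396 and none to 1193.

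Limma 3.58.1 in R 4.3.3 fitted sex × genotype plus sex × stage, and sex × stage plus genotype within stage, to all 8 arrays with an intensity trend. Each model had 2 residual degrees of freedom, and the first had 2.77 prior ones. P-values are two-sided, with Benjamini-Hochberg adjustment over the 8452 probe sets and a threshold of 0.05. Errors are SEs of the fit. The fit was tested on simulated data. Nothing says that arrays came from separate embryos, so p-values measure the spread between these arrays only. The alternatives were no centring, quantile normalization, no floor, a lower floor, no filter, no trend, 1 genotype effect shared by the sexes, other probe sets of a gene and arrays left out, and, added after seeing the data, the array pair as a random block and the stage difference of the KO effect.

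The members and lists were chosen with earlier results of these data known. The naming rule was every member and, of the pathway lists, each gene past the threshold plus up to 4 per list with the largest KO or stage difference among those of 1 sign in all pairs. Because large shares of all probe sets passed over sex and stage, pathway genes past the threshold there are counted and only some of those with the largest stage differences named. Likeness was computed for probe sets exceeding the floor on 6 or more arrays.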

Additional observations from a re-analysis of the deposited data

Results flagged for a closer look

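The stage difference (E14.5 minus E12.5) differed between males and females, by the limma test of that difference, for 4 members, among 69% of all probe sets. In males minus females it was 0.46 for Bmp4, 0.98 for Bmp7, -0.91 for Tgfb2 and, for Acvrl1, 0.49, 0.82 and 0.77 with the probe sets 100450_r_at, 100448_at and 100449_g_at. The KO minus WT difference of Tgfb1 was negative in both sexes at E14.5 and positive in both at E12.5, and the stages differed by -0.48, which did not pass (limma adjusted p = 1). The KO minus WT difference of Acvrl1 by 100448_at was negative in both testis pairs and positive in both ovary pairs, and the sexes differed by -0.22, which did not pass either.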

How the results depend on the processing

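Leaving out centring reversed 5 member values: Acvrl1 to -0.15 for male minus female at E14.5, Bmp7 to -0.18 and Acvrl1 to -0.46 for the stage difference in males, and Bmp4 to -0.064 and Acvrl1 to -0.037 for the stage difference in males minus females. These Acvrl1 values are by 100450_r_at alone, and values of its other probe sets without centring are not given here. Of the other member values under alternatives that kept all arrays or left out 2, 124 kept direction and side of the threshold, 10 lost and 4 gained the call. Each of the 12 member calls for sex or stage was lost in 2 to 8 of the 8 fits that left out 1 array, with 0 reversals in 96. Such a fit has fewer samples.

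The number of probe sets passing for E14.5 minus E12.5 in females was 1949 in the main setting, 5156 without centring, 40 without the filter and 0 without both E14.5 male arrays. For male minus female at E12.5 it was 1377, 2873, 31 and 0 in the same order. For KO minus WT at E12.5 it was 7, and became 67 without a floor, 3 with the lower floor, and 0 with quantile normalization, without the filter, without the trend and without both E14.5 males. For KO minus WT at E14.5 it was 0, and became 72 without a floor and 3 with the lower floor. For the difference of the KO effect between stages it was 0 and became 63 without a floor. With 1 array left out in turn, the counts were 0 to 0 for stage in females, sex at E12.5 and KO at E12.5, 0 to 219 for KO at E14.5, 4982 to 6144 for stage in males, 4130 to 4402 for its gap between the sexes and 4892 to 6135 for sex at E14.5. No probe set passed for KO in females, KO in males, KO over both sexes or their difference under any setting, with 962, 405, 487 and 971 at an unadjusted p under 0.05 in the main setting. Without centring the higher and lower calls were 787 and 6329 for stage in males (main 3208 and 3369), 270 and 4886 for stage in females (main 711 and 1238), 1065 and 4825 for their gap (main 2978 and 2857), 2460 and 413 for sex at E12.5 (main 658 and 719) and 1690 and 4460 for sex at E14.5 (main 3339 and 3212), and with quantile normalization 849 and 883 for stage in females. The cause was not tested.

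The labels give no replicate numbers that pair arrays. With the KO and WT arrays of 1 sex and stage as a paired random block, chosen after seeing the data, 0 of 8441 probe sets passed for KO, with 343 at an unadjusted p under 0.05. Signal over background is not given in the values used here, so members under the floor have no measured difference.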

Other observations

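Of the 57 pathway genes, 17 were lower in KO than in WT ovaries at both stages, a pattern held by 37.7% of all probe sets, and 5 of these (Smad1, Smad2, Smad4, Id1 and Id3) were also higher in KO than in WT testes at both stages, a pattern held by 13.9% of them. The genes below were chosen after their values were seen. Id3, a target of BMP signals, was at 10.21 in KO and 10.61 in WT ovaries and at 10.81 in KO and 10.25 in WT testes at E14.5. At E12.5 it was at 10.98 in KO and 11.22 in WT ovaries and at 10.92 in KO and 10.68 in WT testes. Its KO effect in males minus that in females was 0.71 ± 0.14, with a limma adjusted p of 0.434. For Id1 the same difference was 0.58 ± 0.16, with a limma adjusted p of 0.434. Msx1, another BMP target, was at 8.72 in KO and 9.04 in WT ovaries at E14.5 and at 8.71 in KO and 9.83 in WT ovaries at E12.5, and its fitted KO difference in females was -0.72 ± 0.25 (limma adjusted p = 0.436). Msx1 is also on a marker list for pregranulosa cells, the supporting cells of the ovary. Of the 7 tested genes of that list, 6 had a KO difference below 0 in females, with a median of -0.72. The part of these cells in the Msx1 values was not tested. None of the 12 tested target genes passed for KO in either sex, and the medians of the target list were 0.13 in males and -0.15 in females, against 0.01 and -0.02 for all probe sets. Outside the targets, the ligand list gene Lefty1 was higher in KO ovaries, at 8.55 against 7.69 in WT at E14.5 and 8.34 against 7.52 at E12.5. The follistatin gene Fst, also on the pregranulosa list, was lower in KO ovaries. It was at 7.42 against 8.25 in WT at E14.5 and 7.09 against 9.02 at E12.5.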
